A study of Musculus with 2 samples.

Results

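The dendritic cell maturation genes are 9 of the 32285 genes listed in the count tables. They are the chemokine genes Ccl17 and Ccl22, the chemokine receptor gene Ccr7, the actin-bundling gene Fscn1, the amino acid oxidase gene Il4i1, the calcium channel subunit gene Cacnb3, the apolipoprotein L family gene Apol7c, the surface protein gene Cd83 and the NF-kB subunit gene Relb. They were chosen by their summed counts in Cd74-high C1q-low cells of a control and an LPCAT3-AKO library, with results of these data in view, so those counts are given as a description. The question asked of them was whether lower levels went with fewer Fscn1-positive cells or with lower levels in each cell.

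Dendritic cells sample antigen in tissues and, when they mature, stop sampling and move through lymph vessels to the draining lymph node. The receptor CCR7 guides that movement, the actin-bundling protein fascin (Fscn1) shapes the long processes of the mature cell, and the NF-kB subunit RelB is a transcription factor of the mature state. CCL17 and CCL22 are the ligands of CCR4, a receptor of regulatory and type 2 helper T cells. Fat tissue holds type 1 dendritic cells (Xcr1, Clec9a) and type 2 dendritic cells (Cd209a), and both kinds can mature.

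The cells were the stromal vascular fraction of subcutaneous white adipose tissue (sWAT), which is what remains of the tissue after mature fat cells are floated off. The control library, called WT here, came from WT mice and the LPCAT3-AKO library from LPCAT3 knockout mice, with 1 library of each genotype. Both were made with the droplet-based 10x Genomics method, which reads a short tag of each captured transcript in single cells. LPCAT3 is an acyltransferase that remodels phosphatidylcholine. The labels give an age of 5 weeks, while the design text gives 2 months and a CD diet for the study's mice. The sources used here name neither the promoter behind the knockout nor the number of mice in each library. With 1 library of each genotype there is no replicate and no test between genotypes, and genotype, animal and preparation cannot be told apart. Every interval below is a 95% interval that covers counting error only.

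The WT library held 111669076 UMIs (distinct captured transcripts) in 13831 barcodes and the LPCAT3-AKO library 119355147 UMIs in 12806 barcodes. Filtering and doublet removal left 11191 and 10576 cells with medians of 8078 and 8599.5 UMIs. The libraries shared 58 barcodes, of which 0 lay among the Cd74-high C1q-low cells of both. The targeted gene, Lpcat3, had 26.7 CPM (25.7 to 27.8) over the kept WT cells and 30.6 CPM (29.5 to 31.7) over the kept LPCAT3-AKO cells. CPM scales a gene's UMIs to the total UMIs of the same cells. The tag of a transcript need not come from the part that was removed, so this level does not check the deletion.

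Cd74-high C1q-low cells, called the gate from here on, had 20 or more UMIs of the MHC class II chaperone Cd74, under 5 UMIs of the macrophage genes C1qa, C1qb and C1qc together, and under 3 UMIs of B cell markers. The gate held 852 WT cells (7.61% of kept cells) and 795 LPCAT3-AKO cells (7.52%), with medians of 7383.5 and 7560 UMIs. It was wider than dendritic cells: a UMI of the dendritic cell genes Flt3 or Zbtb46 was seen in 35.9% of its WT and 37.0% of its LPCAT3-AKO cells, while 64.7% and 65.7% had 10 or more UMIs of Lyz2, a gene of monocytes and macrophages. Within it, 111 WT and 103 LPCAT3-AKO cells had 2 or more UMIs of the type 1 markers Xcr1 and Clec9a together, and 280 and 298 had 2 or more of the type 2 marker Cd209a. Mature cells were found without using any of the 9 genes, as cells with UMIs of 5 or more of the 10 genes Socs2, Nudt17, H2-M2, Slco5a1, Zmynd15, Tbc1d4, Ramp3, Arl5c, Serpinb6b and Cd200, and numbered 24 and 8. The remaining 437 and 386 cells are called the rest of the gate.

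In the gate, 6 of the 9 genes were lower in the LPCAT3-AKO library and 0 were higher. The T cell attractants Ccl17 and Ccl22 and the receptor gene Ccr7 were lower, as were Fscn1, Il4i1 and Apol7c, while Cd83 and Relb lay close to their WT levels. Lower means past a rule of size: 20 CPM or more in the higher library, a ratio of 1.5 or more and a counting interval that excludes 1. Of the 5454 genes that reached 20 CPM there, 0.605% were lower and 1.69% were higher. The median log2 ratio of the 9 genes was -1.26, against 0.05 for all genes that reached 20 CPM (log2 ratios are of CPM + 1, LPCAT3-AKO over WT). Since these counts chose the genes, the comparison with all genes is a description.

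Among the ligands, Ccl17 had 1176 UMIs in the WT gate and 193 in the LPCAT3-AKO gate. These are 171 CPM (162 to 182) and 27.7 CPM (23.9 to 31.9), a ratio of 0.161 (0.138 to 0.188). Ccl22 had 2819 and 705 UMIs, or 411 CPM (396 to 426) and 101 CPM (93.8 to 109), a ratio of 0.246 (0.226 to 0.267). A UMI of Ccl17 was seen in 8.92% of WT and 4.78% of LPCAT3-AKO cells of the gate, and a UMI of Ccl22 in 22.8% and 16.7%. Both ligands were thus lower in the share of cells with a UMI as well as in the summed level. In gated fibroblasts, which should lack Ccl22, 1.23% of WT and 0.434% of LPCAT3-AKO cells had a UMI of it at medians of 9558 and 9286 UMIs. The shares in the gate lay above that background in both libraries.

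Ccr7, the receptor that leads mature dendritic cells into lymph vessels, had 1630 UMIs in WT and 798 in the LPCAT3-AKO gate. Its level was 238 CPM (226 to 249) and 114 CPM (107 to 123), a ratio of 0.482 (0.442 to 0.525), while its share of cells with a UMI was closer, at 24.2% and 21.4%. Fscn1 had 329 and 118 UMIs, or 48.0 CPM (42.9 to 53.4) and 16.9 CPM (14.0 to 20.3), a ratio of 0.353 (0.284 to 0.437). Its UMIs came from few cells, 26 in WT and 14 in the LPCAT3-AKO gate.

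Il4i1, a secreted oxidase of phenylalanine and tryptophan that restrains T cells, had 222 and 90 UMIs, or 32.4 CPM (28.2 to 36.9) and 12.9 CPM (10.4 to 15.9), a ratio of 0.399 (0.309 to 0.512). Apol7c, a gene of dendritic cells, had 145 and 5 UMIs, or 21.1 CPM (17.8 to 24.9) and 0.717 CPM (0.233 to 1.67). Its 5 LPCAT3-AKO UMIs lay in 2 cells, and its 145 WT UMIs in 15 cells. Apol7c thus had the lowest ratio of the 9 genes, 0.0339 (0.0109 to 0.0810), and also rested on the fewest cells. Of its relatives in the gate, Apol7a, Apol7b, Apol7d and Apol7e had from 0 to 5 UMIs in either library. Reads that map to several of these similar genes could not be traced here.

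Cacnb3, the beta 3 subunit of voltage-gated calcium channels, had 78 and 37 UMIs, or 11.4 CPM (8.99 to 14.2) and 5.31 CPM (3.74 to 7.32). Its ratio of 0.467 (0.307 to 0.699) lay below 1, but neither library reached 20 CPM, so it was not called. Cd83, a surface protein that stabilises MHC class II, had 1304 CPM (1277 to 1331) in WT and 1367 CPM (1340 to 1395) in the LPCAT3-AKO gate, and was seen in 90.0% and 88.2% of cells. Relb had 77.1 CPM (70.7 to 84.0) and 69.9 CPM (63.8 to 76.4), a ratio of 0.906 (0.799 to 1.03), with a UMI in 36.3% and 39.1% of cells. Cd83 and Relb were spread over more cells of the gate than the other 7 genes in both libraries. In WT and LPCAT3-AKO, 198 and 180 cells held 50% of the Cd83 UMIs and 86 and 89 cells those of Relb. Ccr7 came next with 22 and 27 cells, although 206 and 170 cells had a UMI of it, against 309 and 311 for Relb. Apol7c was the called gene nearest to the minimum of 20 CPM, at 21.1 CPM, and Cacnb3 lay outside it on level alone.

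**Figure D1:**
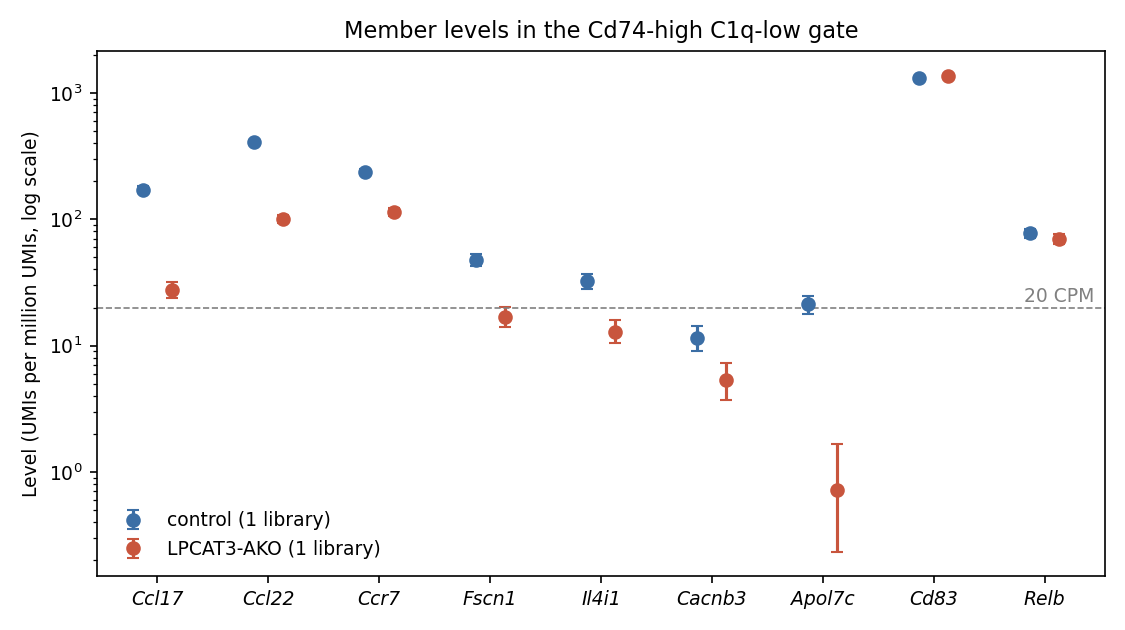
Levels of the 9 genes in the gate of each library (control is WT), as CPM on a log axis; points are the library's value, bars its exact Poisson 95% interval (counting error only), and the dashed line marks 20 CPM. Ccl17, Ccl22, Ccr7, Fscn1, Il4i1, Cacnb3 and Apol7c lie lower in the LPCAT3-AKO library with intervals apart, and Cd83 and Relb lie close together.

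The first of the possibilities asked about was the number of Fscn1-positive cells. A UMI of Fscn1 was found in 26 of 852 WT cells of the gate (3.05%, 2.00 to 4.44) and in 14 of 795 LPCAT3-AKO cells (1.76%, 0.966 to 2.94). The ratio of the shares was 0.577, and its interval of 0.279 to 1.15 included 1. In gated macrophages, which should lack Fscn1, 1.22% of WT and 1.41% of LPCAT3-AKO cells had a UMI of it, at medians of 6673 and 8264 UMIs. The LPCAT3-AKO share in the gate thus lay close to that background, and cells with 1 UMI of Fscn1 cannot be read as Fscn1-expressing cells.

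With 3 or more UMIs of Fscn1 required, 19 WT cells (2.23%, 1.35 to 3.46) and 6 LPCAT3-AKO cells (0.755%, 0.277 to 1.64) remained, a ratio of 0.338 (0.111 to 0.881). At that minimum, 3 of 3369 WT macrophages and 0 of 2547 LPCAT3-AKO macrophages were positive, which in the latter allows a share of up to 0.118%. Some Fscn1-positive cells also carried fibroblast genes: 2 of the 26 WT and 3 of the 14 LPCAT3-AKO cells had 30 or more UMIs of Col1a1, Col1a2, Col3a1 and Dcn together. Fibroblasts express Fscn1 themselves (described below). The summed level of all 8 fibroblast markers in Fscn1-positive cells was 3401 CPM in WT and 15884 CPM in the LPCAT3-AKO library, and 577 and 621 CPM without those cells. Without them, 24 and 11 cells had a UMI of Fscn1, and 19 and 4 had 3 or more, a ratio of 0.226 (0.0558 to 0.679).

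Doublet removal bore on the count. Before it, 43 WT and 36 LPCAT3-AKO cells of the gate had a UMI of Fscn1, of 937 and 901, a ratio of the shares of 0.871 (0.543 to 1.39). In that wider gate, 8.32% of WT and 11.9% of LPCAT3-AKO cells had the fibroblast genes. Without the latter, and still with no doublet removal, the Fscn1-positive cells numbered 25 and 12, and those with 3 or more UMIs 19 and 4. The count at 3 or more UMIs was thus the same with and without doublet removal once cells with fibroblast genes were set aside.

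Mature cells found by the other 10 genes gave a like picture without using Fscn1. They made up 24 of 852 WT cells of the gate (2.82%, 1.81 to 4.16) and 8 of 795 LPCAT3-AKO cells (1.01%, 0.435 to 1.97), a ratio of 0.357 (0.139 to 0.822). A minimum of Cd74 leaves out mature cells with little of it. At any Cd74 level, leaving out cells with the markers of another type, 28 of 11191 kept WT cells (0.250%) and 13 of 10576 kept LPCAT3-AKO cells (0.123%) were mature, a ratio of 0.491 (0.234 to 0.980). Of these, 5 of 28 WT and 5 of 13 LPCAT3-AKO cells had fewer than 20 UMIs of Cd74. The median Cd74 count of the mature cells was 58.5 UMIs in WT and 28 in the LPCAT3-AKO library, at median totals of 6248.5 and 6480 UMIs. Mature cells found by the 10 other genes were thus fewer in the LPCAT3-AKO library with and without the Cd74 minimum. The ratios of the shares had overlapping intervals and differed in denominator and in the cells left out. They therefore do not show whether the Cd74 minimum changed the difference.

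The second possibility was a lower level in each cell. In the 26 and 14 Fscn1-positive cells of the gate, 8 of the 9 genes passed the rule of size as lower in the LPCAT3-AKO library, and 0 were higher. Only 19 of the WT and 6 of the LPCAT3-AKO cells had 3 or more UMIs of Fscn1. Fscn1 is 1 of the 8 genes and chose all 26 and 14 cells, so its own level in them is a description. Of the 6815 genes at 20 CPM or more in those cells, 6.35% were lower and 11.8% higher, so these few cells gave many more calls than the whole gate. Ccl17 had 1693 CPM (1517 to 1883) in WT and 59.6 CPM (29.7 to 107) in the LPCAT3-AKO cells. Ccl22 had 5084 and 531 CPM, and Ccr7 had 3090.2 and 818 CPM. Fscn1 (1648 and 639 CPM), Il4i1 (456 and 81.3 CPM), Cacnb3 (351 and 108 CPM), Apol7c (137 and 2 UMIs) and Relb (391 and 152 CPM) were also lower, and Cd83 (1367 and 1035 CPM) did not pass. The summed level of the 8 genes other than Fscn1 was 13117 and 2795 CPM, a log2 ratio of -2.23 (-2.37 to -2.09). With each cell thinned to 2000 UMIs, and positive cells taken as those that kept a UMI of Fscn1, it was -0.42. Thinning thus also changed which cells were summed, and the part of depth was not tested.

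This difference depended on which cells were taken as positive. Of the 14 LPCAT3-AKO cells, 6 had a UMI of Ccr7, against 22 of 26 WT cells. Their median totals were 10844.5 and 6277.5 UMIs. Without the cells that carried fibroblast genes, the same 8 of 9 genes were lower, again with Fscn1, which chose the cells, among them. There 4.34% of 5616 genes were lower and 10.0% higher, and the log2 ratio of the sum was -1.73. With 3 or more UMIs of Fscn1 required as well, 19 and 4 cells remained. There Ccl22 (6000 and 3099 CPM) and Ccr7 (4427 and 3674 CPM) lay closer together. Cacnb3 (530 and 607 CPM) and Relb (568 and 607 CPM) stood higher in the LPCAT3-AKO cells, and Apol7c (1037 and 63.9 CPM) stayed far apart. Among cells found by the 10 other genes, the sum of the 8 genes other than Fscn1 had a log2 ratio of -0.69, and with clusters of cells in place of the gate, -0.98. In the 24 and 8 mature cells of the gate, 3 of the 9 genes were lower and 0 higher, where 3.17% of 5678 genes were lower and 4.39% higher. Ccl17, Ccl22 and Apol7c were the 3 lower genes. Fscn1, Ccr7, Il4i1, Cacnb3, Cd83 and Relb did not pass.

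The mature cells at any Cd74 level, 28 and 13, held more LPCAT3-AKO cells and gave the same 3 genes past the rule of size, with 2.33% of 5873 genes lower and 4.27% higher. Fscn1 had 1751 CPM (1569 to 1948) in WT and 1772 CPM (1514 to 2062) in the LPCAT3-AKO cells, with medians of 7.5 and 10 UMIs per cell. Ccr7 had 3926 CPM (3652 to 4216) and 3512 CPM (3144 to 3912), with medians of 29.5 and 26 UMIs per cell. The intervals of their ratios, 0.836 to 1.22 and 0.784 to 1.02, included 1. Cacnb3 (451 and 435 CPM), Cd83 (1694 and 1889 CPM) and Relb (518 and 594 CPM) also had intervals that included 1. Il4i1 had 637 and 435 CPM, a ratio of 0.683 (0.467 to 0.980) that missed the rule narrowly.

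The ligands differed in these same mature cells. Ccl22 ranged from 0 to 154 UMIs with a median of 6.5 in the 28 WT cells, and from 0 to 84 with a median of 3 in the 13 LPCAT3-AKO cells. Its level was 5201 CPM (4884 to 5533) and 1284 CPM (1065 to 1534), a ratio of 0.247 (0.203 to 0.298). In WT cells, 12 of 28 cells had 10 or more UMIs of Ccl22, and in the LPCAT3-AKO library 2 of 13 did. A single LPCAT3-AKO cell held 84 of the 121 UMIs, and without the highest cell of each library the levels were 4605 and 433.5 CPM. The per-cell ranges overlapped, and the difference lay in the upper part of the range. The mature cells also differed in Cd74, with medians of 58.5 UMIs in WT and 28 in LPCAT3-AKO cells. The WT cell with 154 UMIs of Ccl22 had 189 of Cd74, and the LPCAT3-AKO cell with 84 had 202. A WT cell with 83 UMIs of Ccl22 had 18 of Cd74. Whether the ligand difference followed a different mix of mature cells was not tested.

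Ccl17 was seen in 12 of 28 WT mature cells, with up to 84 UMIs, and in 2 of 13 LPCAT3-AKO mature cells, with up to 9. Its level was 1430 CPM (1266 to 1609) and 138 CPM (73.5 to 236). Apol7c was seen in 16 of 28 and 6 of 13 cells, with up to 38 and up to 6 UMIs, at 901 CPM (772 to 1046) and 244 CPM (155 to 366), a ratio of 0.271 (0.167 to 0.420). No LPCAT3-AKO mature cell had 10 or more UMIs of Ccl17 or Apol7c, against 6 and 5 WT cells.

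**Figure D2:**
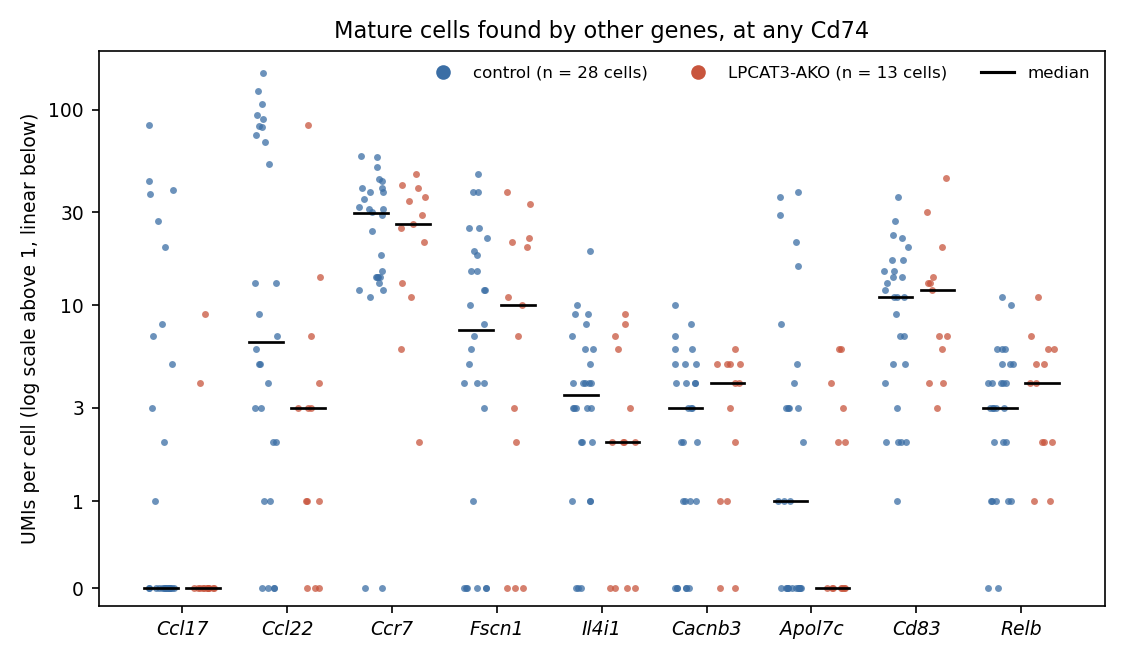
UMIs per cell of the 9 genes in mature cells found by 10 other genes at any Cd74 level, on an axis that is logarithmic above 1 UMI and linear below; each point is a cell (28 WT, 13 LPCAT3-AKO; points are spread sideways) and lines are medians. Ccr7, Fscn1, Cacnb3, Cd83 and Relb overlap over most of their range, while the WT cells with more than 50 UMIs of Ccl22, more than 10 of Ccl17 or more than 10 of Apol7c have few or no LPCAT3-AKO counterparts.

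Much of the Ccl17 and Ccl22 difference lay outside Fscn1-positive cells, which did not take in all mature cells. A UMI of Fscn1 was seen in 17 of 24 WT and 5 of 8 LPCAT3-AKO mature cells of the gate. In the WT gate, 28.7% of Ccl17 UMIs and 36.0% of Ccl22 UMIs were in cells with a UMI of Fscn1, and 37.9% of Ccr7 UMIs were. Apol7c and Cacnb3 were concentrated there, with 94.5% and 89.7%. In Fscn1-negative cells (826 and 781), Ccl17 had 126 CPM (117 to 135) in WT and 26.8 CPM (23.1 to 31.0) in LPCAT3-AKO cells. Ccl22 had 271 and 89.5 CPM and Ccr7 152 and 95.4 CPM. These 3 of the 9 genes were lower and 0 higher, where 0.571% of 5430 genes were lower and 1.82% lower or higher.

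The difference between the libraries can be split by the cells that held it. Fscn1-negative cells held 66.8% of the Ccl17 difference in the gate (144 CPM in all), 56.8% of the Ccl22 difference (310 CPM) and 44.5% of the Ccr7 difference (123 CPM). For Il4i1 the share was 42.9% of 19.5 CPM, and for Apol7c 3.60% of 20.4 CPM. Cells outside the mature ones, found without Fscn1, held 75.6%, 62.8% and 45.3% of the Ccl17, Ccl22 and Ccr7 differences. For Fscn1, Cacnb3 and Apol7c they held 0.620%, 7.48% and 9.28%. In those 828 and 787 cells Ccl17 (139 and 26.7 CPM), Ccl22 (287 and 85.2 CPM) and Ccr7 (147 and 87.7 CPM) were lower and 0 members higher, where 0.441% of 5447 genes were lower and 1.63% higher.

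**Figure D3:**
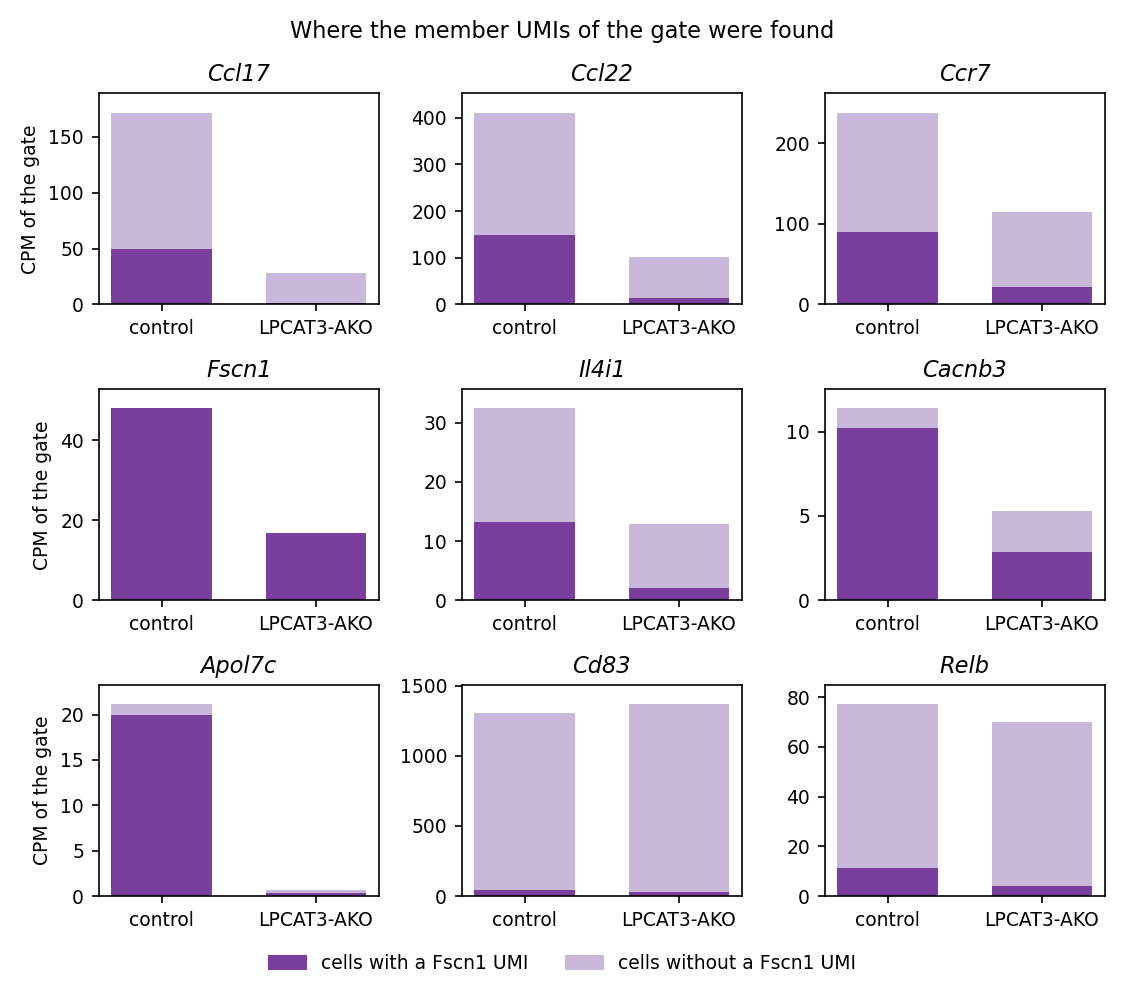
Level of each gene in the gate (CPM of all UMIs of the gate, linear axis from 0, each panel on its own scale) in 1 library of each genotype, split into the part from cells with a UMI of Fscn1 (dark) and the part from cells without (light); no error bars are drawn. The light part of Ccl17 and Ccl22 is smaller in the LPCAT3-AKO library, while Apol7c and Cacnb3 lie mostly in the dark part of the WT.

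A recalculation sets the number of mature cells apart from their levels. With LPCAT3-AKO levels per cell class and the WT's proportion of UMIs from mature cells (2.78% of the gate's UMIs, against 0.976%), Fscn1 would stand at 42.9 CPM, near the WT value of 48.0 CPM. Cacnb3 would stand at 13.3 CPM, against 11.4 CPM measured in the WT, and Ccr7 at 164 CPM, against 238 CPM. Ccl17 would stand at 29.6 CPM and Ccl22 at 131 CPM, far from the 171 and 411 CPM of the WT, and Apol7c at 2.05 CPM against 21.1 CPM. With the split by a UMI of Fscn1, where positive cells held 2.91% and 2.65% of the UMIs, the same exercise left Fscn1 at 18.6 CPM and Ccl22 at 102 CPM. With LPCAT3-AKO levels and mature cells found by other genes, the recalculated Fscn1 and Cacnb3 thus lay near their WT levels. Ccl17, Ccl22 and Apol7c lay near their LPCAT3-AKO levels. Ccr7 lay in between, as did Il4i1, at 20.2 CPM against 32.4 CPM in WT and 12.9 CPM in the LPCAT3-AKO gate. With WT levels and the LPCAT3-AKO proportion instead, Fscn1 would stand at 18.9 CPM and Cacnb3 at 4.96 CPM, near their LPCAT3-AKO levels. Ccl17 would stand at 150 CPM and Ccl22 at 330 CPM, nearer to WT, and Ccr7 (179 CPM) and Il4i1 (22.4 CPM) again in between. Apol7c would stand at 8.68 CPM, between 0.717 and 21.1 CPM, so its place depended on the direction of the exercise. The recalculated values carry no interval and rest on 8 LPCAT3-AKO mature cells. Fscn1 in those 8 cells was at 1440 CPM, and at 983 CPM without the highest cell.

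Among the classes of the gate, the type 2 cells (Cd209a) had Ccl17 at 203 CPM (185 to 223) in WT and 59.7 CPM (50.8 to 69.6) in LPCAT3-AKO cells. Their Ccl22 was 231 and 115 CPM, a ratio of 0.499 (0.432 to 0.576), and their Ccr7, at 219 and 155 CPM, had a ratio of 0.710 (0.621 to 0.811) and did not pass. Ccl17 was seen in like shares of these cells, 9.64% and 9.40%. Few cells held most of it: in each library 2 type 2 cells held 50% of the Ccl17 UMIs of that class, with up to 144 UMIs in a WT and up to 47 in an LPCAT3-AKO cell. In the type 1 cells (Xcr1, Clec9a), Ccl22 had 185 CPM (158 to 215) and 177 CPM (151 to 206), a ratio of 0.957 (0.768 to 1.19), while Ccr7 had 132 and 43.2 CPM and Ccl17 41.4 and 3.16 CPM. These 2 were the lower genes in type 1 cells, where 2.22% of 5362 genes were lower and 6.25% higher. They too rested on few cells. A UMI of Ccr7 was seen in 23 of 111 WT and 20 of 103 LPCAT3-AKO type 1 cells, and 3 WT cells, with 37, 19 and 14 UMIs, held 70 of the 121 WT UMIs, against 41 UMIs and at most 7 per cell in the LPCAT3-AKO library. For Ccl17, 1 WT cell held 18 of 38 UMIs. In type 2 cells 1.2% of 5270 genes were lower and 4.1% higher. A UMI of Fscn1 was seen in 1 of 280 WT and 2 of 298 LPCAT3-AKO type 2 cells. Among type 1 cells 0 of 111 WT cells had one (exact interval 0 to 3.27%), and 2 of 103 LPCAT3-AKO cells did (1.94%, 0.236 to 6.84). At this depth the type 1 shares could not be told apart from those of the whole gate, 3.05% and 1.76%.

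As a ratio of LPCAT3-AKO to WT, both ligands were lowest in the rest of the gate, among its 4 classes; in CPM the gap was larger in the mature cells of the gate (Ccl22 4746 and 1720 CPM, Ccl17 1304 and 132 CPM). Cells of the rest fell short of the minimum for the type 1, type 2 and mature classes, and could still carry a UMI of their markers. Ccl22 had 347 CPM (328 to 367) in the 437 WT cells and 33.0 CPM (27.1 to 39.9) in the 386 LPCAT3-AKO cells. Ccl17 had 125 CPM (114 to 137) and 5.86 CPM (3.53 to 9.16). Ccr7 was also lower there (106 and 43.8 CPM), and 1.83% of 5695 genes were lower and 3.53% higher. Cells with 10 or more UMIs of Ccl22 numbered 19 of 437 and 3 of 386, and they held 1089 of the 1240 Ccl22 UMIs of the WT. Monocyte markers summed to 5867 and 6888 CPM in these cells and fibroblast markers to 1288 and 1658 CPM. The part of other cell types in this difference was not tested.

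The UMIs of both ligands were uneven over cells. In the WT gate 7 cells held 50% of the Ccl17 UMIs and 13 cells held 50% of the Ccl22 UMIs. In the LPCAT3-AKO gate these numbers were 3 and 16. Ccl17 reached 10 UMIs in 23 WT and 4 LPCAT3-AKO cells, and Ccl22 in 46 and 18. By contrast, 198 WT and 180 LPCAT3-AKO cells held 50% of the Cd83 UMIs. Of the Ccl17-positive cells, 57 of 76 WT and 18 of 38 LPCAT3-AKO cells also had a UMI of Ccl22, a ratio of the shares of 0.632 (0.350 to 1.09). Of the Apol7c-positive WT cells, 14 of 15 had a UMI of Fscn1.

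Outside the gate, the 9 genes parted into those found mainly in it and those shared with other cells. The measured levels of Ccl17, Ccl22 and Apol7c were at or below 10 CPM in each other gated type of both libraries. Both ligands were at 0 UMIs in gated monocytes, mast cells and basophils, and B cells, which numbered 10 to 67 cells. These types held few UMIs of all genes: 20298 and 58176 in B cells, 122309 and 118456 in mast cells and basophils, 161732 and 269571 in monocytes. A count of 0 there therefore does not show a level at or below 10 CPM. In macrophages Ccl17 had 3.36 and 1.05 CPM and Ccl22 6.07 and 2.36 CPM, and in fibroblasts Ccl22 had 1.37 and 0.450 CPM. Whether free RNA in the droplets gave these low levels was not tested. Apol7c reached 8.99 and 7.32 CPM in endothelial cells, from 20 UMIs in each library.

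Fscn1 was also a gene of stromal and vessel cells, and there its direction differed. In 5368 WT and 5525 LPCAT3-AKO fibroblasts it had 26.2 CPM (24.8 to 27.6) and 40.9 CPM (39.2 to 42.6), a ratio of 1.56 (1.46 to 1.67). It was the 1 member that was higher in fibroblasts, where 1.41% of 6046 genes were higher and 0.794% lower. Endothelial cells had 115 CPM (102 to 130) and 148 CPM (134 to 163), a ratio of 1.28 (1.09 to 1.504) that did not pass. Cacnb3 had 6.13 and 10.1 CPM in fibroblasts, a ratio of 1.65 (1.43 to 1.90) below 20 CPM, and 27.4 and 29.7 CPM in epithelial cells. Over all kept cells Fscn1 therefore stood at 23.0 CPM in WT and 28.7 CPM in the LPCAT3-AKO library, the opposite order to the gate. Over all kept cells 2 of the 9 genes were lower, Ccl22 (34.4 and 8.13 CPM) and Ccr7 (21.8 and 12.5 CPM), and 0 were higher, where 0.684% of 6582 genes were lower and 1.69% higher.

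Cd83 was a gene of most myeloid cells, with 1013 CPM (1000.3 to 1026) in WT and 921 CPM (909 to 933) in LPCAT3-AKO macrophages. It passed the rule of size in monocytes, which were few (40 and 54 cells), with 501 CPM (398 to 622) and 868 CPM (760.4 to 987), higher in the LPCAT3-AKO library, where 5.39% of 6488 genes were higher. In the 10 and 23 B cells it had 5 and 55 UMIs and was also higher (1.09% of 6082 genes were). Ccr7 was found in T cells, which use the same receptor to enter lymph nodes, at 171 CPM (131 to 220) and 232 CPM (192 to 278), and in B cells at 493 and 292 CPM. Relb had 11.2 CPM (3.06 to 28.7) in WT and 55.6 CPM (36.9 to 80.4) in LPCAT3-AKO T cells, from 4 and 28 UMIs, and was called higher (3.65% of 5965 genes were). Il4i1 in monocytes had 11 and 1 UMIs and was called lower (5.12% of genes were). Over the 9 gated types outside the gate, these 5 pairs of a gene and a type passed.

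In the other types none of the 9 genes passed in either direction. Among macrophages 0.714% of 6023 genes were lower and 1.59% higher, and among endothelial cells 1.1% of 6610 were lower and 2.71% higher. Epithelial cells had 7.94% of 6210 genes lower and 7.97% higher, natural killer cells 2.85% and 2.93% of 6448, and mast cells and basophils 2.11% and 2.32% of 6822. Among T cells 3.84% of genes were lower, and among B cells 1.51%. Relb, which was found in most of the gated types, had 35.2 CPM (32.8 to 37.6) in WT and 42.1 CPM (39.5 to 44.8) in LPCAT3-AKO macrophages, and 43.1 and 92.0 CPM in natural killer cells from 11 and 16 UMIs.

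**Figure D4:**
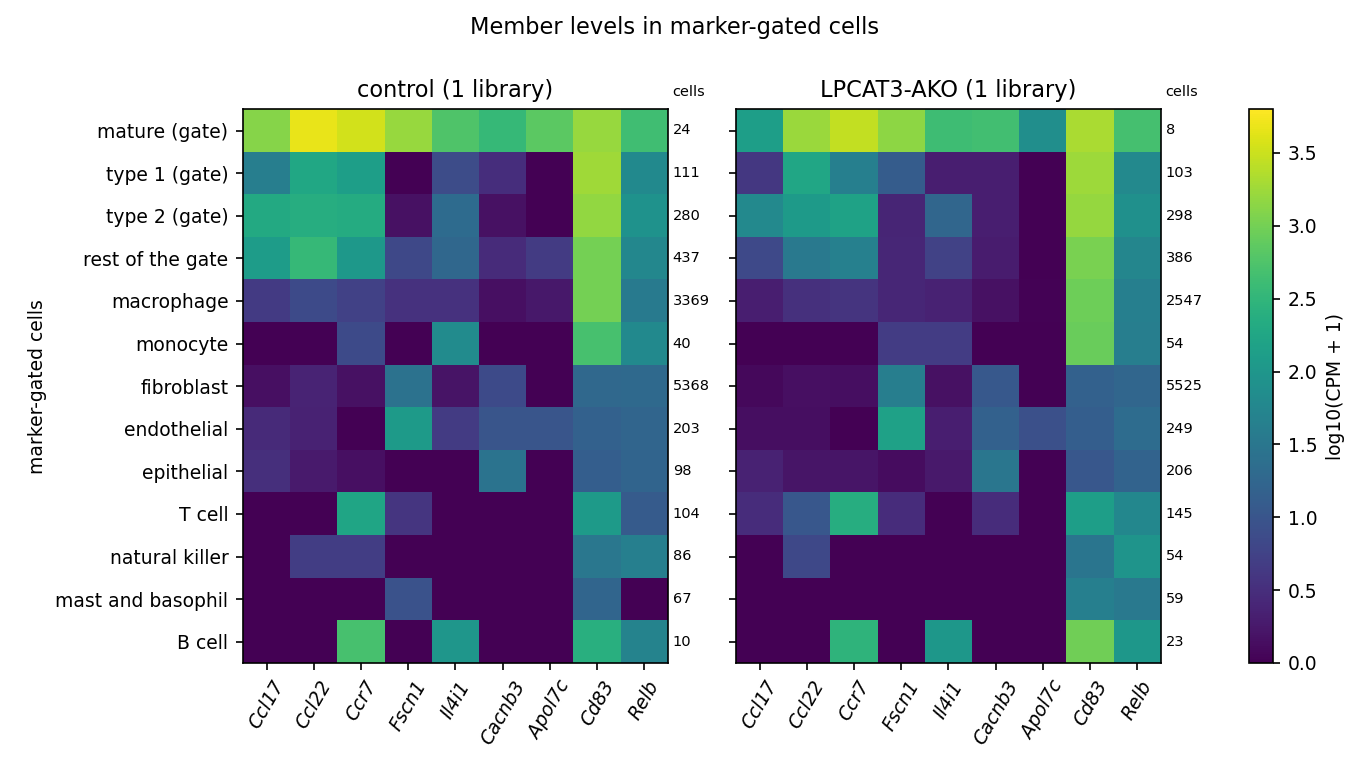
Level of each gene, as log10(CPM + 1), in marker-gated cells of each library (numbers at the right of each panel are cells); the upper 4 rows divide the gate. The mature row holds the highest level of each gene except Cd83 in WT cells; Fscn1 is also seen in endothelial cells and fibroblasts, Ccr7 in T and B cells, and Cd83 in macrophages and monocytes.

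Other genes of the mature programme were taken from a list of 27, of which 17 reached 20 CPM in the gate. Of these, 4 were lower and 1 higher in the LPCAT3-AKO library, where 0.605% of 5454 genes were lower and 1.69% higher. The lower ones included Il12b, the p40 chain of interleukin 12 (54.7 and 19.2 CPM, log2 ratio -1.46), the T cell attractant Ccl5 (247 and 155 CPM, -0.66) and the protease inhibitor Serpinb6b (50.6 and 31.0 CPM, -0.69). The fourth, Socs2, an inhibitor of cytokine signalling (38.9 and 23.5 CPM, -0.70), was named after its value was seen. Ebi3, a chain of cytokines of the interleukin 12 family, was higher (51.0 and 81.9 CPM, 0.67). The median log2 ratio of the 17 was -0.19, against 0.05 for all genes that reached 20 CPM. In Fscn1-negative cells 0 of 15 were lower and 1 was higher, where 0.571% of 5430 genes were lower and 1.82% lower or higher.

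In the 24 and 8 mature cells of the gate, the same list showed another picture. All 27 genes reached 20 CPM there, and 3 were lower and 5 higher, where 3.17% of 5678 genes were lower and 4.39% higher. The 27 had a median log2 ratio of -0.08 (-0.09 for all genes) and a summed level of 21005 and 26913 CPM. The 3 lower genes, Arl5c (712 and 426 CPM), Socs2 and Zmynd15, were among the 10 that chose these cells, as was Tbc1d4 (1142 and 2161 CPM), which was higher. The other higher genes were Ccl5 (5710 and 10186 CPM), the signalling adaptor Traf1 (969 and 1617 CPM), Ebi3 (162 and 412 CPM) and Stat4 (194 and 441 CPM). Socs2, Zmynd15, Ebi3 and Stat4 were named here after their values were seen. Ccl5 was thus lower in the whole gate and higher in its mature cells, and Il12b, at 1351 and 1279 CPM in the mature cells, did not pass there.

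The genes that act with the members showed 0 calls in either direction in the gate. Of the costimulation and checkpoint list 6 of 9 genes reached 20 CPM, as Tnfsf9 (338 and 464 CPM), Cd86 (134 and 130.0 CPM), Cd80 (88.5 and 71.02 CPM) and Icosl (43.4 and 48.5 CPM). Of the NF-kB subunits and feedback genes all 13 reached it, as Nfkbia (1786 and 1888 CPM), Nfkbiz (1256 and 1396 CPM), Rel (906 and 812 CPM) and Tnfaip3 (762 and 820 CPM). Of the genes that induce or support maturation 10 of 13 did, as Il1b (4393 and 3965 CPM), Csf2ra (312 and 315 CPM), Csf2rb (247 and 223 CPM) and Tnf (198 and 230 CPM). Of antigen presentation genes all 12 did, as Cd74, which defined the gate (17207 and 17068 CPM), H2-Ab1 (7720 and 7711 CPM), H2-Aa (7671 and 7855 CPM) and H2-Eb1 (5619 and 5594 CPM). Their median log2 ratios, -0.02, 0.08, 0.07 and 0.02, lay near the 0.05 of all genes.

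In the mature cells of the gate these lists held some calls, which rest on 24 and 8 cells. Of all 5678 genes that reached 20 CPM there, 3.17% were lower and 4.39% higher. Of 12 antigen presentation genes 2 were lower and 0 higher, with a median log2 ratio of -0.43: H2-DMa (64 and 10 UMIs) and H2-DMb2 (18 and 1 UMIs), chains of proteins that help load peptide on MHC class II. Of 8 costimulation and checkpoint genes at 20 CPM, Cd80 (38 and 5 UMIs) and Cd274 (56 and 10 UMIs) were lower and Cd40 (398 and 632 CPM) higher. Of 13 NF-kB subunits and feedback genes, Birc3 (403 and 220.5 CPM) was lower, and Traf1 and Map3k14 (141 and 279 CPM) were higher. Of 11 inducers at 20 CPM, 0 were lower, and Irf8 (498 and 853 CPM) and Il4ra (12 and 11 UMIs) were higher.

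The partners of the chemokines and of Ccr7 were scarcely found in the gate. None of the 8 reached 20 CPM: Ackr2, a scavenger of CCL17 and CCL22, had 8 and 7 UMIs, and Ccr4, their signalling receptor, 1 and 3. The CCR7 ligand gene Ccl21a had 1 and 3 UMIs, and Ccr6, the receptor of CCL20, 3 and 2.

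Across 13 gated types in both libraries, 26 points that share libraries and depth, the genes whose log2 level followed the mean of the 9 members most closely were Mmp25 (Pearson r = 0.922), Il12b (0.921), Gtf2a1 (0.876), Strip2 (0.870) and Etv3 (0.833), of 5313 genes compared. Among the members, Ccl17 (0.847) and Ccl22 (0.834) followed the mean of the other 8 most closely and Fscn1 (0.497) least. These are descriptions over few points that include the differences between the libraries.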

How the data were processed

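The deposited matrices hold raw UMI counts with no normalization, 1 per library; per the submitters' processing notes Cell Ranger 6.1.2, Seurat 4.10 and mm10 were used. The members, gene lists, markers and rules were chosen with earlier results of these data known.

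Barcodes with 500 or more genes and at most 10% of UMIs from mt- genes were kept. The cells with the highest Scrublet scores (scanpy 1.11.5, Python 3.11.15), 0.8% per 1000 cells, were removed as doublets, 1235 from the control (WT) and 1088 from the LPCAT3-AKO library. Scrublet's own threshold called 589 and 560. Levels carry exact Poisson, shares Clopper-Pearson and ratios exact binomial 95% intervals (scipy 1.17.1); ratios of levels used a pseudocount of 1 CPM on the log2 scale, and a count of 0 a floor of 3. Other types needed summed UMIs of their own markers and of no other type: fibroblasts 50, epithelial cells 30, macrophages 20, endothelial cells and mast cells with basophils 10, natural killer cells and monocytes 5, T and B cells 3. Type 1 and type 2 cells needed 2. Named were the 9 members, up to 4 genes of each list (those past the rule of size by level, or the highest of the list where none passed) and the 5 genes most like the members' mean. The code was tested on simulated data.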

Additional observations from a re-analysis of the deposited data

Results flagged for a closer look

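Several genes moved in opposite directions in the gate and in another gated type, with counting intervals on either side of 1. Fscn1 had a log2 ratio (LPCAT3-AKO over control) of -1.45 in the gate, 0.62 in fibroblasts and 0.35 in endothelial cells. Cacnb3 had -0.97 in the gate and 0.64 in fibroblasts, below 20 CPM in both. Cd83 had 0.068 in the gate, -0.33 in fibroblasts and -0.14 in macrophages, all within 1.5-fold; with no doublet removal its gate value was -0.012, and with no cell filter either -0.015, so the opposite direction of Cd83 rested on that step. With 1 library of each genotype, the differences between cell types were not tested.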

How the results depend on the processing

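Counting intervals do not cover the spread between mice, which 1 library of each genotype cannot show. They also take UMIs as independent and so do not cover the spread between cells. In the mature cells of the gate, 5 of 24 WT cells held 223 of 249 Ccl17 UMIs, and 1 of 8 LPCAT3-AKO cells held all 9. No paired analysis was possible because each genotype has 1 library and the labels give no replicate numbers. Cd83 in the gate, which did not pass the rule of size (log2 ratio 0.068), was at -0.012 with no doublet removal and -0.015 with no cell filter either; no other result changed sign in any alternative run. The number of lower members in the gate was 5 to 7 over 14 alternatives, that of higher members 0 in all 13, and the median member log2 ratio -1.32 to -0.98.

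The sum of all 9 members in the gate (log2 ratio -0.43) was -0.49 with no doublet removal and also with no cell filter, -0.48 with C1q under 2 UMIs, -0.39 with C1q under 10, -0.63 with Leiden clusters, -0.51 with cells thinned to 2000 UMIs and for the mean of per-cell CPM, and -0.48 with median-ratio scaling. It was -1.53 without Cd83, which makes up most of the sum. The Fscn1-positive share (-0.79) was -1.96 in thinned cells, where 2.56% and 0.656% of cells had a UMI, and lay between -1.56 and -0.19 otherwise.

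The sum of the other 8 members in Fscn1-positive cells (-2.23) was -1.94 and -2.68 with a Cd74 minimum of 10 and 40, -2.02 with a Cd74 minimum set against the total of each cell, -2.89 with C1q under 2 UMIs, -2.50 without B cell markers, -1.57 for the per-cell mean and -2.61 without the largest cell of each library. It was -2.01 and -2.07 with 2 and 3 or more UMIs of Fscn1, -1.73 without cells carrying fibroblast genes and -2.74 without Cd83. These settings were not combined for the sum. With 3 or more UMIs and no fibroblast genes, 19 control and 4 LPCAT3-AKO cells remained. Their Ccl17 was 1127 and 288 CPM, Ccl22 6000 and 3099, Ccr7 4427 and 3674, and Il4i1 636 and 479. Apol7c was 1037 and 63.9 CPM and Cd83 1634 and 1406, while Cacnb3 (530 and 607) and Relb (568 and 607) stood higher in the LPCAT3-AKO cells. In the 24 and 11 cells with a UMI of Fscn1 and no fibroblast genes, Ccl22 was 5971 and 909 CPM, Ccr7 3630 and 1381, and Il4i1 535 and 139. These gaps were wider than with both settings, while Cd83 went the other way, at 1530 and 1650 CPM. Of the settings run, the smallest values of the sum were -0.98 in Leiden clusters, -0.69 in mature cells found by other genes and -0.42 in thinned cells. Among thinned cells the positive ones were those that kept a UMI of Fscn1, so the sum covered fewer cells. In Fscn1-negative cells (-0.22) it was -0.27 with no doublet removal, with no cell filter and with median-ratio scaling, -0.38 in Leiden clusters, -0.33 in thinned cells, -0.30 for the per-cell mean, -0.26 with 3 or more UMIs of Fscn1 and with mature cells found by other genes, and -1.12 without Cd83. The cause of these shifts was not tested. Of single members, Apol7c ranged from -4.70 to -2.79 and Fscn1 from -1.89 to -0.98. The alternatives without Cd83, without cells carrying fibroblast genes and with mature cells at any Cd74 (a share at -1.03) were added after seeing the data. Depth limits the rare cells most: levels in mature cells rest on 8 to 28 cells.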
